A study of Mus musculus with 8 samples.

Results

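The genes described here are 35 genes of mitosis, the stage of the cell cycle in which duplicated chromosomes are separated and the cell divides. They are the rows of the deposited expression table whose gene symbol is on a list of mitotic cyclins, kinases, kinesins, centromere and spindle genes, and they make up 35 of the 20258 rows with a symbol. All 35 were among the 13615 genes tested. They were followed in macrophages grown from bone marrow of C57BL/6 mice, a cell type that grows in culture from dividing precursors. The cells received no stimulus (unstimulated, 2 libraries), the cytokine IL4 (3 libraries), or LPS plus IFNg, that is, lipopolysaccharide of bacterial walls and the cytokine interferon gamma (3 libraries), each for 24 h. The study set these states side by side to look at metabolism and transcription in polarised macrophages. RNA was read by 3' end sequencing, and every value below is the deposited quantile-normalised log2 expression value unless a difference is named. The labels do not say whether libraries of a group came from separate mice or cultures, so p-values measure the spread between these libraries, which may be technical.

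Entry into mitosis is driven by Cdk1 bound to cyclins A and B, whose levels rise as cells approach division and are removed by the anaphase-promoting complex, a ubiquitin ligase. Kinases such as Plk1, Aurka and Aurkb then build the spindle, kinetochore proteins attach chromosomes to it, kinesins move chromosomes and microtubules, and a last set of proteins divides the cell. Most of these genes are transcribed mainly in the G2 and M phases and are low in cells that do not divide, which makes the set a common readout of proliferation. In bulk RNA, fewer cells in division and less RNA of these genes per cell cannot be told apart.

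The mitotic genes were far lower after LPS plus IFNg than in unstimulated macrophages. In limma, with p adjusted over all genes tested and a threshold of 0.05, 28 of the 35 fell and 0 rose (0 also at an unadjusted p under 0.05), whereas 4.25% of all genes tested fell and 3.72% rose. The median log2 difference of the 35 was -4.97, against -0.04 over all genes tested. Without the 7 members that were listed at 0 in every LPS plus IFNg library the members' median was -4.55. The rest still include 5 members listed at 0 in 1 of these libraries and 7 in 2 of them. The size of their differences depends on what a 0 stands for, which is not known. For 33 of the 35, every LPS plus IFNg library lay below both unstimulated libraries, an arrangement seen in 20.7% of all genes tested. Fewer of the falls passed the test when 1 of the unstimulated libraries was left out: 16 without library 1 and 15 without library 2, in fits where the lone unstimulated library is assumed to vary like the other groups.

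After IL4 none of the mitotic genes passed the test in either direction. The limma count was 0 lower and 0 higher, with 1 gene, Birc5, lower at an unadjusted p under 0.05, beside 0.793% of all genes called lower and 0.514% called higher. The members' median difference from unstimulated cells was -0.54, against -0.01 over all genes tested. Of the 35 differences 27 were negative, beside 7415 of all 13615, and 12 members changed sign under at least 1 setting. For 11 of 35 all IL4 libraries lay below both unstimulated ones, against 14.7% of all genes tested. The standard errors of the members' differences ran from 0.28 to 1.27 with a median of 0.80, so a change of 0.54 was not detectable for most members. Among the IL4 libraries, library 1 was the highest for 20 of the 35 members, and libraries 2 and 3 the lowest for 15 and 14. Compared directly, LPS plus IFNg libraries were lower than IL4 libraries for 28 of 35 members and higher for 0 in limma (0 at an unadjusted p under 0.05), where 6.96% of all genes were called lower and 5.91% higher. The median difference was -4.33, or -3.97 without the 7 members at 0. For 33 of 35, every LPS plus IFNg library lay below all IL4 libraries, against 14.8% of all genes tested. For 1 member, Tpx2, every LPS plus IFNg library lay above them. The comparisons of IL4 and of LPS plus IFNg with unstimulated cells share the same 2 unstimulated libraries.

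**Figure D1:**
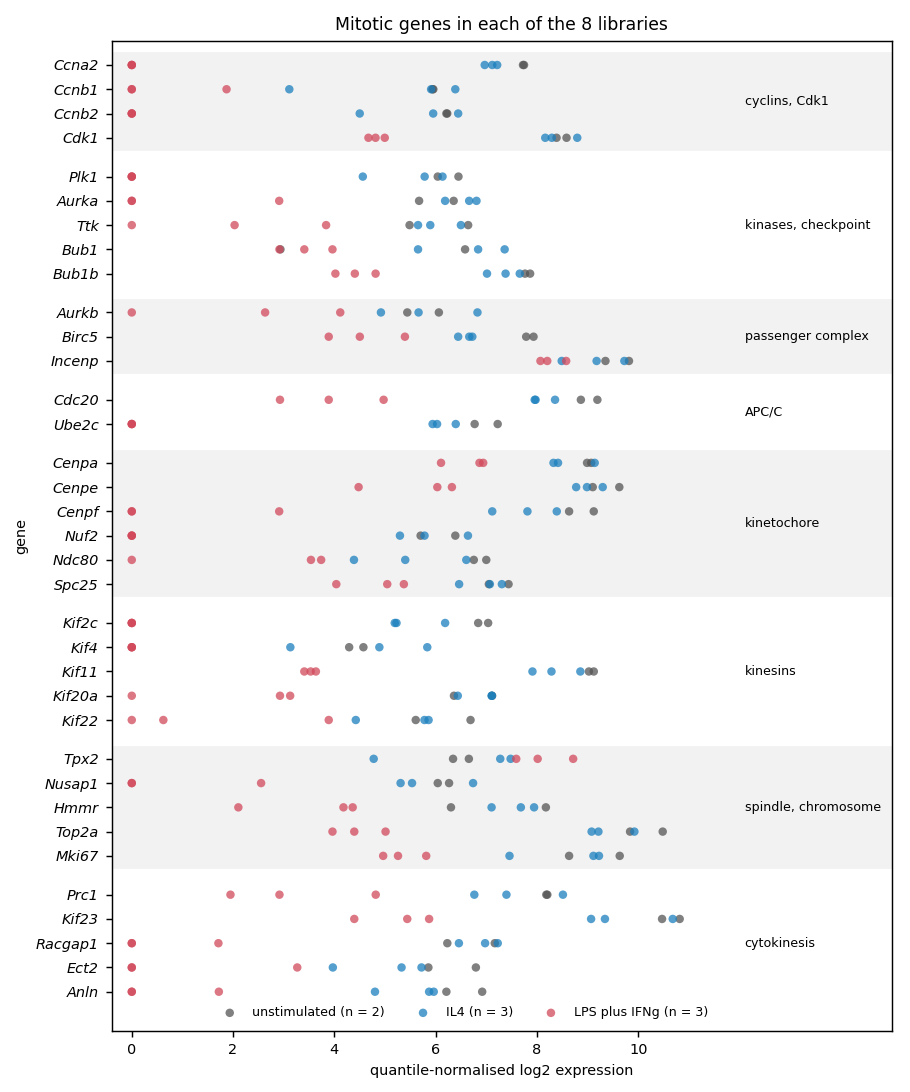
Quantile-normalised log2 expression (horizontal axis) of each of the 35 mitotic genes (rows, grouped by role) in 2 unstimulated (grey), 3 IL4 (blue) and 3 LPS plus IFNg (red) libraries, 1 point per library. Grey and blue points lie together for most genes, while red points lie to their left or at 0, except for Tpx2, Incenp and Bub1.

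The size of the difference can be read from the libraries themselves. The median of the 35 members was 6.92 and 7.11 in the 2 unstimulated libraries, 7.21, 6.66 and 6.76 in the 3 IL4 libraries, and 3.41, 2.63 and 2.10 in the 3 LPS plus IFNg libraries. All 35 were above 0 in each of the unstimulated and IL4 libraries, whereas 25, 19 and 21 were above 0 in LPS plus IFNg libraries 1, 2 and 3. Cyclins Ccna2 and Ccnb2, the kinase Plk1, the ubiquitin-conjugating enzyme Ube2c, the kinesins Kif2c and Kif4 and the kinetochore gene Nuf2 were listed at 0 in all 3. These are 7 of 35 members (20.0%), and of the 10525 genes above 0 in both unstimulated libraries 338 (3.21%) were at 0 throughout that group. Another 5 members were listed at 0 in 1 of them and 7 in 2 of them. The table gives no read counts, so how many reads stand behind a 0 is unknown, and no fold change is given for a gene listed at 0 throughout a group. Low values above 0 fell on shared steps: the Aurka value of 2.91 in LPS plus IFNg library 1, for example, was held by 140 genes in that library.

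A feature that the choice of genes did not use is the letter content of their promoters. Many genes of G2 and M phase carry a cell cycle genes homology region, or CHR, bound by the MuvB complex through Lin54, and upstream of it CCAAT boxes bound by NF-Y. MuvB joins the factors B-Myb and FoxM1 in dividing cells and repressive pocket proteins in resting cells. RefSeq promoter windows of build GRCm38.p6, from 250 bases before to 50 bases after the annotated start, were held for 30 of the 35 members (32 windows, since Prc1 and Ect2 had 2 each). Aurkb, Ccna2, Incenp, Kif20a and Tpx2 had none. Both strands were searched for the CHR-type letters TTTGAA and TTCGAA and for CCAAT, and matches were allowed to overlap. TTTGAA was present in 24 of 30 members (80.0%) and in 17.9% of all 32851 windows, and either CHR-type word in 25 of 30 (83.3%) and 19.2%. CCAAT was present in 24 of 30 (80.0%) and 37.4%, and both kinds in 22 of 30 (73.3%) and 7.52%. Counted per window, so that the overlapping windows of Ect2 and of Prc1 count a shared match in each, members had 38 CHR-type matches at 35 distinct genome positions. Of the 38, 28 (73.7%) lay at or after 100 bases before the start, against 41.4% of such matches in all windows. In all 22 members with both kinds a CCAAT lay before a CHR-type match. The smallest distance between their first letters was 9 to 153 bases, with a median of 32 over 24 windows. Any pair in this order counted, on either strand, and many windows held several matches of a kind. The order and distance were not counted over all windows, so no share stands beside them. Birc5, Nuf2 and Nusap1 held neither word in this window, which says nothing about the factors that bind there. A match is a description of letters and not a measured site. The 5 windows below, chosen after their values were seen, show this layout in 3 members listed at 0 in every LPS plus IFNg library (Ccnb2, Plk1, Ube2c), in Cdk1, which stayed above 0, and in Bub1, whose groups overlapped and which has the TTCGAA form. Capitals mark matches of the 3 words or their reverse complements. Ccnb2 is at chr9:70421505-70421804 on the minus strand, Plk1 at chr7:122159185-122159484 on the plus strand, Ube2c at chr2:164769679-164769978 on the plus strand, Cdk1 at chr10:69352863-69353162 on the minus strand and Bub1 at chr2:127831810-127832109 on the minus strand, each written 5′ to 3′ along the gene.
Ccnb2: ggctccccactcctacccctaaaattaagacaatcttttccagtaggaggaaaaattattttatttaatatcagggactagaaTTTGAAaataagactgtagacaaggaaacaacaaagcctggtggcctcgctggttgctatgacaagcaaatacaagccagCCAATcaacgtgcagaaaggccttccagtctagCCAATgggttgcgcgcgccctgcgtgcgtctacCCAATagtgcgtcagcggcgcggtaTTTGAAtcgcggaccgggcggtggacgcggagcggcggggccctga
Plk1: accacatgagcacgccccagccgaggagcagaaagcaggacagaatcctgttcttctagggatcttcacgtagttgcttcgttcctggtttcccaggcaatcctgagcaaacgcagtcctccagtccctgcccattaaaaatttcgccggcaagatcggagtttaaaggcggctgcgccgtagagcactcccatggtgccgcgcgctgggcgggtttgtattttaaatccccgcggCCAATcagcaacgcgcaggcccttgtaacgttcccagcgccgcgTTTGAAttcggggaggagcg
Ube2c: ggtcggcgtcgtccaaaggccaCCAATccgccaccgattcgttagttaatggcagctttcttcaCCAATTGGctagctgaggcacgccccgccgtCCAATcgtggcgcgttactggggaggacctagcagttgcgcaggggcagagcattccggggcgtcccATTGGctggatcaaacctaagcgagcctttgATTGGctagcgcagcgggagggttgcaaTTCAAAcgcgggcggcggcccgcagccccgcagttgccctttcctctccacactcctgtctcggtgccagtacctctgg
Cdk1: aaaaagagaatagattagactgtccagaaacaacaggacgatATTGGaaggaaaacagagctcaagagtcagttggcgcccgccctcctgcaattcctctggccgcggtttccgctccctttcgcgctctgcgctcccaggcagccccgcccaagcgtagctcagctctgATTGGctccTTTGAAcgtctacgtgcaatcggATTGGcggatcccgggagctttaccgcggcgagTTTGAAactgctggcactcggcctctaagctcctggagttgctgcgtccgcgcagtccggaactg
Bub1: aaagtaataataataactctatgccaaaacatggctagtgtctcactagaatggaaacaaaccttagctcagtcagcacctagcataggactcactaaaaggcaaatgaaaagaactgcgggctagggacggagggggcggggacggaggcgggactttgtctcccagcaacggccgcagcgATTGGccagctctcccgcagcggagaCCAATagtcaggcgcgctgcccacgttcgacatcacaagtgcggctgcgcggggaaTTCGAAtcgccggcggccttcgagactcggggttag

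**Figure D2:**
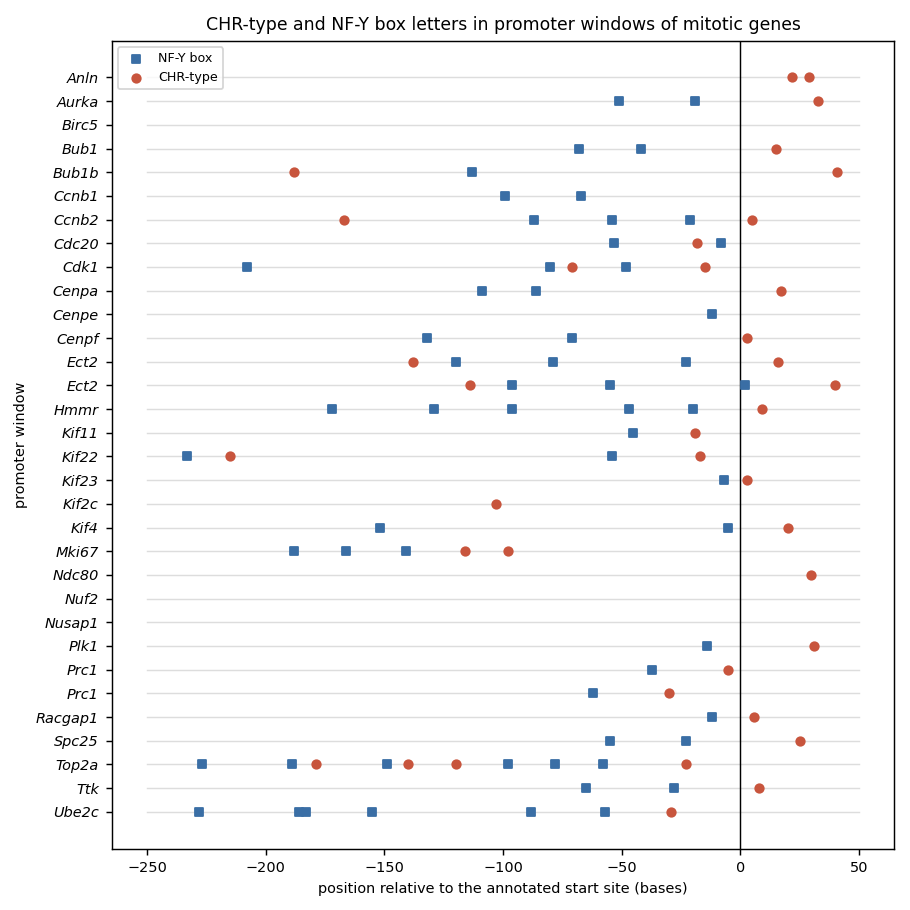
Positions of CCAAT (blue squares, NF-Y box) and of TTTGAA or TTCGAA (red circles, CHR-type) on either strand in the 32 RefSeq promoter windows of 30 mitotic genes, in bases from the annotated start site (vertical line). Most red circles lie near the start with a blue square before them.

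The cyclins and their kinase fell in all 4 cases after LPS plus IFNg. Cyclin A2 (Ccna2), which acts from S phase to early mitosis, stood at 7.72 and 7.74 in unstimulated libraries, at 7.21, 7.12 and 6.97 after IL4 and at 0 in all 3 LPS plus IFNg libraries (limma adjusted p = 0.000798). Cyclin B2 (Ccnb2) had 6.23 and 6.21, then 5.95, 6.44 and 4.50, then 0 in all 3 (adjusted p = 0.0061). Neither had an overlap between LPS plus IFNg and any other library. Cdk1, the kinase that both cyclins activate, stood at 8.39 and 8.58 unstimulated, 8.16, 8.80 and 8.29 after IL4, and 4.99, 4.81 and 4.67 after LPS plus IFNg. It was low in all 3 LPS plus IFNg libraries but never at 0, with a log2 difference of -3.66 (SE 0.28, adjusted p = 0.0011) from unstimulated and -3.59 (SE 0.25, adjusted p = 0.000294) from IL4. Cyclin B1 (Ccnb1) had 5.94 and 5.95 unstimulated, 6.39, 5.91 and 3.11 after IL4, and 0, 0 and 1.87 after LPS plus IFNg. Its IL4 libraries spread the most of any member (SD 1.77, n = 3), and its fall of -5.32 (SE 1.21, adjusted p = 0.0411) passed the test in 1 of the 8 fits that each left out 1 library.

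Of the mitotic kinases and checkpoint genes, 3 of 5 fell after LPS plus IFNg (Plk1, Aurka and Bub1b). Bub1b, a checkpoint protein that holds back anaphase until chromosomes are attached, stood at 7.86 and 7.76 unstimulated, 7.66, 7.38 and 7.01 after IL4, and 4.81, 4.02 and 4.40 after LPS plus IFNg. All 3 treated libraries were low and close together, and the difference was -3.40 (SE 0.37, adjusted p = 0.00282). Plk1, which drives mitotic entry and spindle formation, had 6.04 and 6.45 unstimulated, 4.56 to 6.14 after IL4 and 0 in all 3 LPS plus IFNg libraries (adjusted p = 0.00521). Aurka, the spindle pole kinase, had 5.67 and 6.36, then 6.19 to 6.81, then 2.91, 0 and 0. Its difference was -5.04 (SE 1.03, adjusted p = 0.0275), and without unstimulated library 2 the adjusted p was 0.176. The checkpoint kinase Ttk had a similar difference of -4.11, but a wider spread in LPS plus IFNg libraries (3.84, 2.03 and 0) and an adjusted p of 0.0788. Its difference from IL4, -4.06, passed the test (SE 1.01, adjusted p = 0.0404), though in only 1 of the 8 fits that each left out 1 library.

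Bub1, the kinase partner of Bub1b at kinetochores, was the member with the largest spread between unstimulated libraries. They held 6.58 and 2.94, the IL4 libraries 7.36, 5.65 and 6.84, and the LPS plus IFNg libraries 3.41, 2.92 and 3.96. The second unstimulated library lay within the LPS plus IFNg range and the first did not. The difference from unstimulated was -1.33 (SE 1.11, adjusted p = 0.605), was 0.49 without unstimulated library 1 and -3.15 without library 2, and was 0.14 when libraries were scaled to equal ribosomal protein gene means. Against IL4, where the groups did not overlap, the difference was -3.19 (SE 0.99, adjusted p = 0.0858). It passed with only the 2 groups compared (0.0213), with the genes of lowest mean left out (0.0271) and without unstimulated library 1 (0.0359) or 2 (0.0349).

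The 3 genes of the chromosomal passenger complex, which corrects faulty attachments and guides cytokinesis, differed among themselves. Birc5 (survivin) had 7.79 and 7.93 unstimulated, 6.72, 6.44 and 6.66 after IL4, and 3.89, 5.39 and 4.50 after LPS plus IFNg, so that the 3 groups did not overlap. It fell by 3.26 on the log2 scale after LPS plus IFNg (SE 0.48, adjusted p = 0.00746, or 0.0627 without unstimulated library 2), and its IL4 difference of -1.25 (SE 0.48) had an adjusted p of 0.347. Incenp, the scaffold of the complex, had 9.82 and 9.35 unstimulated, 9.18, 8.49 and 9.73 after IL4, and 8.58, 8.20 and 8.07 after LPS plus IFNg. Its LPS plus IFNg values lay under both unstimulated ones, but the difference of -1.30 (SE 0.37) did not pass the test (adjusted p = 0.088). It passed with only the 2 groups compared (0.0406), with the genes of lowest mean left out (0.0313), with array weights (0.0418) and without IL4 library 2 (0.0372), and the difference was 0.17 under ribosomal protein scaling. Aurkb, the kinase of the complex, had 5.44 and 6.06, then 5.66, 6.83 and 4.92, then 4.12, 2.63 and 0, with an adjusted p of 0.169.

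Both members that serve the anaphase-promoting complex fell. Its activator Cdc20 stood at 8.87 and 9.19 unstimulated, 7.96, 8.36 and 7.97 after IL4, and 3.89, 4.97 and 2.93 after LPS plus IFNg, with no overlap between any of the groups. The difference was -5.10 for LPS plus IFNg (SE 0.56, adjusted p = 0.00287) and -0.93 for IL4 (SE 0.56, adjusted p = 0.558). Ube2c, which loads ubiquitin for the complex, had 6.77 and 7.22 unstimulated, 5.94 to 6.40 after IL4 and 0 in all 3 LPS plus IFNg libraries (adjusted p = 0.00184). The complex also has subunits and a further activator, Fzr1, outside the members. In limma, none of Anapc1, Anapc2, Cdc16, Cdc23, Cdc27 and Fzr1 passed the test after LPS plus IFNg. Their differences from unstimulated were -0.33, -1.48, -0.45, 2.15, 0.18 and -0.10 in that order, with a lowest adjusted p of 0.0707 (Anapc2).

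Kinetochore genes fell in 5 of 6 cases. Cenpe, a kinesin that aligns chromosomes, had 9.63 and 9.10 unstimulated, 9.30, 8.77 and 8.99 after IL4, and 6.03, 4.48 and 6.32 after LPS plus IFNg. The last group lay apart from the others, with a difference of -3.75 (SE 0.54, adjusted p = 0.00705, or 0.07 without unstimulated library 1). Cenpf, a large outer kinetochore protein, went from 9.12 and 8.63 to 2.91, 0 and 0 (adjusted p = 0.00399). By contrast Cenpa, the histone variant that marks centromeres, had 8.99 and 9.07 unstimulated, 8.42, 9.14 and 8.33 after IL4, and 6.86, 6.94 and 6.11 after LPS plus IFNg, all well above 0. Its difference of -2.39 (SE 0.35, adjusted p = 0.00767) and that of Spc25, -2.43 (SE 0.50, adjusted p = 0.028), were the smallest among the falls. Spc25, a subunit of the Ndc80 complex, had 7.05 and 7.44 unstimulated and 4.04, 5.04 and 5.37 after LPS plus IFNg. Whether these 2 genes differ from the other members was not tested. Without unstimulated library 2 their adjusted p were 0.0761 and 0.175. Within the Ndc80 complex, which binds microtubules, Nuf2 was at 0 in all 3 LPS plus IFNg libraries after 5.70 and 6.39 unstimulated (adjusted p = 0.00507), while Ndc80 had 0, 3.54 and 3.74 after 6.75 and 7.0 (adjusted p = 0.0856).

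Kinesins fell in 4 of 5 cases. Kif11 (Eg5), which pushes spindle poles apart, had 9.03 and 9.12 unstimulated, 7.91, 8.86 and 8.29 after IL4, and 3.41, 3.64 and 3.53 after LPS plus IFNg. The last 3 values lay close together and far below the other 5, and the difference of -5.55 (SE 0.34) had the lowest adjusted p among the members, 0.000418. Kif2c, which depolymerises microtubules, had 7.04 and 6.84 unstimulated and Kif4, which shapes chromosomes and the midzone, 4.57 and 4.29. Both were listed at 0 in every LPS plus IFNg library (adjusted p = 0.00265 and 0.036), the second with an adjusted p of 0.12 without unstimulated library 2. Kif20a, a cytokinesis kinesin, fell from 6.36 and 7.11 to 3.13, 0 and 2.93 (adjusted p = 0.031, or 0.213 without unstimulated library 2). Kif22, which pushes chromosome arms outward, had 6.69 and 5.61 unstimulated and 3.89, 0 and 0.62 after LPS plus IFNg, with an adjusted p of 0.0769.

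Of the spindle and chromosome genes 4 of 5 fell. Top2a, the topoisomerase that untangles sister chromatids, had 10.48 and 9.84 unstimulated, 9.92, 9.21 and 9.08 after IL4, and 4.39, 5.01 and 3.96 after LPS plus IFNg. Its LPS plus IFNg libraries were all far below the others, with a difference of -5.70 (SE 0.41, adjusted p = 0.000798). Mki67, the proliferation antigen Ki-67, had 9.63 and 8.63, then 9.22, 7.46 and 9.11, then 5.81, 5.26 and 4.96, a difference of -3.79 (SE 0.60, adjusted p = 0.0102, or 0.0918 without unstimulated library 1). Nusap1, which bundles spindle microtubules, fell from 6.04 and 6.26 to 2.55, 0 and 0 (adjusted p = 0.0224, or 0.135 without unstimulated library 2). Hmmr, which anchors the spindle at its poles, fell from 6.30 and 8.18 to 4.18, 4.36 and 2.10 (adjusted p = 0.0405) and lost the call in each of the 8 fits that left out 1 library.

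Tpx2, which activates Aurka and nucleates spindle microtubules, was the one member with higher values after LPS plus IFNg. It had 6.66 and 6.34 in unstimulated libraries, 7.48, 4.78 and 7.27 after IL4, and 8.01, 8.71 and 7.59 after LPS plus IFNg. Every LPS plus IFNg library lay above every other library, and IL4 library 2 lay below all others. The difference of 1.61 from unstimulated (SE 0.80, adjusted p = 0.338) and of 1.60 from IL4 (SE 0.72, adjusted p = 0.217) did not pass the test. Without IL4 library 2 the first had an adjusted p of 0.0476, and under ribosomal protein scaling it was 3.08 with an adjusted p of 0.0143.

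All 5 cytokinesis genes fell after LPS plus IFNg. Kif23, the kinesin of the centralspindlin complex at the spindle midzone, had 10.82 and 10.47 unstimulated, 9.34, 9.07 and 10.68 after IL4, and 4.39, 5.44 and 5.87 after LPS plus IFNg. The groups with and without LPS plus IFNg were separated by a gap wider than the spread within either, and the difference was -5.41 (SE 0.58, adjusted p = 0.00268). Racgap1, its partner in centralspindlin, had 7.17 and 6.23, then 7.23, 6.98 and 6.46, then 0, 0 and 1.71, a difference of -6.13 (SE 0.80, adjusted p = 0.00521). Prc1, which bundles midzone microtubules, went from 8.18 and 8.20 to 1.95, 2.92 and 4.82 (adjusted p = 0.015, or 0.137 without unstimulated library 2). Anln, which organises the contractile ring, went from 6.92 and 6.21 to 1.72, 0 and 0 (adjusted p = 0.00784). Ect2, which activates RhoA at the cleavage site, went from 5.86 and 6.79 to 3.27, 0 and 0 (adjusted p = 0.0454) and passed the test in 1 of the 8 fits that each left out 1 library.

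**Figure D3:**
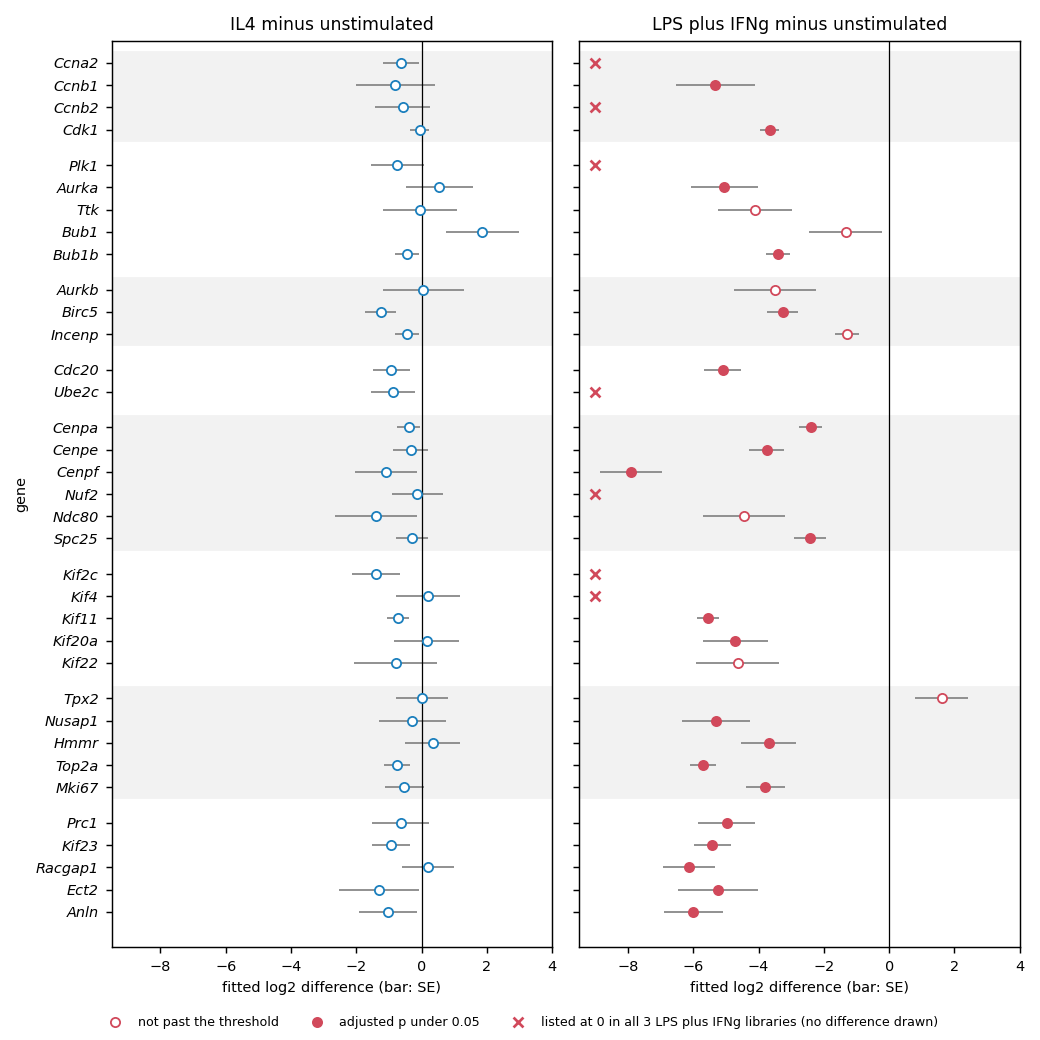
Fitted log2 differences (points) with their standard errors (bars) for the 35 mitotic genes, IL4 minus unstimulated on the left and LPS plus IFNg minus unstimulated on the right. Filled points passed the limma threshold of 0.05, open points did not, and crosses at the left edge mark the 7 genes at 0 in each LPS plus IFNg library, for which no difference is drawn.

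Scaling bears on the size of these differences. Setting the mean of 11 housekeeping genes equal in all libraries raised the median difference of all genes between LPS plus IFNg and unstimulated cells by 0.69, and doing so with 82 ribosomal protein genes raised it by 1.47. All genes called then went from 579 lower and 506 higher to 265 lower and 1102 higher, and to 183 lower and 5370 higher. Under these 2 scalings the median of the mitotic genes was -4.28 and -3.50, with 23 and 24 members lower and 0 and 1 (Tpx2) higher. Against IL4 the members' median was -3.77 and -2.86, and all genes called went from 948 lower and 804 higher to 498 and 1502, and to 284 and 6601.

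Overlap with other genes bears on the counting. In the GENCODE M21 annotation, 8 of the 35 members share exon bases with a gene on the opposite strand and 0 with a gene on the same strand. These pairs are Ccna2 with Exosc9, Cdc20 with Elovl1, Kif20a with Cdc23, Kif4 with Pdzd11, Nusap1 with Oip5, Plk1 with Gm44985, Prc1 with Rccd1 and Ube2c with Tnnc2. The libraries keep strand per the labels, but the sources used here do not say whether the counting used it, so for these 8 genes reads of the partner may be included.

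Further genes of mitosis, outside the 35, also fell in part. Of 78 such genes tested, 28 fell and 1 rose after LPS plus IFNg, beside 4.25% and 3.72% of all genes tested. The median difference was -3.22, or -2.55 without the 17 that a whole group lists at 0. Against IL4 29 fell and 1 rose, beside 6.96% and 5.91% of all genes tested. The falls against IL4 numbered 13 to 33 over all settings. The condensin genes Smc2 and Ncapg2, which compact chromosomes, fell by 2.56 (SE 0.28, adjusted p = 0.00271) and fell by 2.98 (SE 0.35, adjusted p = 0.0035). Smc2 stood at 9.48 and 9.34 unstimulated, 9.23 to 9.54 after IL4 and 6.76, 7.33 and 6.47 after LPS plus IFNg, whereas Ncapg2 had 8.78 and 8.44, then 5.98, 6.46 and 6.94, then 5.54, 5.68 and 5.67. Ncapg2 was the one gene of this list that also fell after IL4, by 2.15 (SE 0.35, adjusted p = 0.0373, or 0.126 without unstimulated library 1). Casc5, the kinetochore scaffold Knl1, was at 0 in each LPS plus IFNg library after 6.89 and 6.97 unstimulated (adjusted p = 0.00253). The one gene that rose was Pttg1, securin, which restrains sister chromatid separation. It had 6.52 and 5.56 unstimulated, 6.31, 5.88 and 6.46 after IL4, and 7.50, 8.18 and 7.89 after LPS plus IFNg, a difference of 1.82 (SE 0.40, adjusted p = 0.0345, or 0.151 without unstimulated library 2). Its rise against IL4, 1.64 (adjusted p = 0.0232), held in 4 of the 8 fits that each left out 1 library, with adjusted p up to 0.086.

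Genes of DNA replication, which act in the S phase before mitosis, fell in 9 of 50 cases after LPS plus IFNg. None rose (limma, 0 also at an unadjusted p under 0.05), and the median difference was -1.55. Of all genes tested 4.25% fell and 3.72% rose. Against IL4 14 fell and 0 rose (0 at an unadjusted p under 0.05), with a median of -1.79. In that comparison 6.96% of all genes tested were lower and 5.91% higher. The count against IL4 was 9 without IL4 library 3, and it ran from 5 to 24 over all settings. After IL4 the count was 0 in both directions, with 1 lower at an unadjusted p under 0.05. Uhrf1, which recruits the maintenance DNA methyltransferase to new DNA, had 7.32 and 8.61 unstimulated, 7.88, 9.25 and 7.02 after IL4 and 3.27, 2.92 and 2.93 after LPS plus IFNg. Its difference was -4.93 (SE 0.69, adjusted p = 0.0068, or 0.0749 without unstimulated library 2). Lig1, which seals newly made strands, fell by 2.93 (SE 0.47, adjusted p = 0.0104, or 0.0995 without unstimulated library 2). Mcm5, a subunit of the replicative helicase, was at 0 in each LPS plus IFNg library (adjusted p = 0.0134, or 0.057 without unstimulated library 1). The median of the replication genes per library was 6.11 and 5.91 unstimulated and 4.58, 4.35 and 4.69 after LPS plus IFNg. Whether the replication and mitotic lists differ was not tested.

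**Figure D4:**
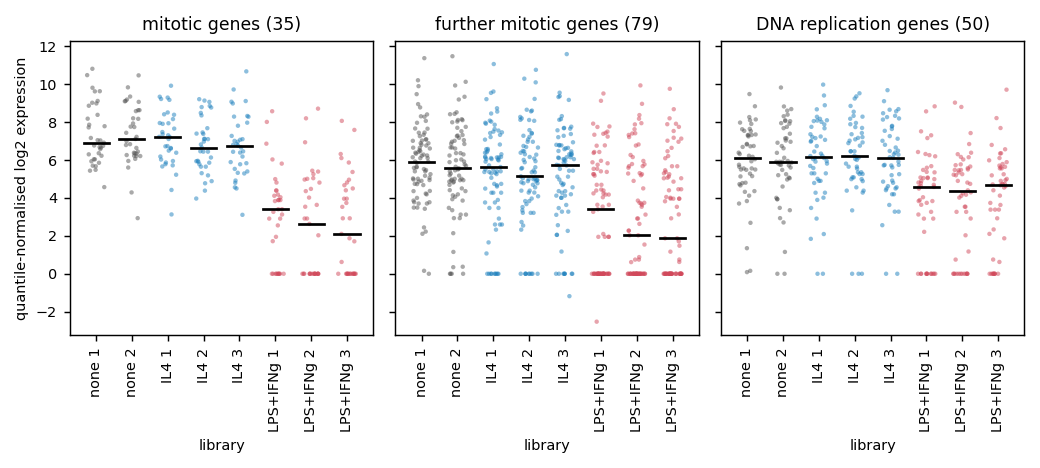
Quantile-normalised log2 expression of the 35 mitotic genes, of 79 further mitotic genes and of 50 DNA replication genes in each of the 8 libraries, with 1 point per gene and a bar at the median. The medians of the mitotic genes lie between 6.66 and 7.21 in unstimulated and IL4 libraries and between 2.10 and 3.41 in LPS plus IFNg libraries.

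Few regulators of the cycle passed the test. Foxm1, the factor that activates many G2 and M phase genes together with MuvB, stood at 5.36 and 5.20 unstimulated, 5.61, 6.31 and 5.40 after IL4, and 0 in all 3 LPS plus IFNg libraries (adjusted p = 0.00702). Mybl2 (B-Myb) was low and scattered in every group (0.09 and 4.03, then 0, 4.39 and 1.17, then 3.50, 0 and 0), with an adjusted p of 0.862. Foxm1 was the 1 of 16 genes of the MuvB, pocket protein and NF-Y list that fell after LPS plus IFNg, beside 4.25% of all genes tested. Against IL4 it was joined by Tfdp1, an E2F partner, at -1.84 (adjusted p = 0.0437), beside 6.96% of all genes tested. None of the 16 rose in either comparison (limma, 0 at an unadjusted p under 0.05), and after IL4 the limma count was 0 in both directions, with 1 higher at an unadjusted p under 0.05.

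Of the 7 CDK inhibitor genes 2 rose and 1 fell after LPS plus IFNg, beside 3.72% and 4.25% of all genes tested. Cdkn1a (p21), which blocks cyclin-dependent kinases, had 11.14 and 10.93 unstimulated, 12.06, 10.95 and 12.36 after IL4, and 13.60, 13.41 and 13.12 after LPS plus IFNg. Its 3 LPS plus IFNg libraries were above all others, with a difference of 2.34 (SE 0.41, adjusted p = 0.015, or 0.144 without unstimulated library 2). Cdkn2b (p15) was listed at 0 in all 5 libraries without LPS plus IFNg and had 2.55, 3.54 and 3.27 with it. Its limma adjusted p was 0.0109, or 0.0542 with only the 2 groups compared. These are low values on shared steps, held by 129 genes in LPS plus IFNg library 1 and 90 in library 2. Cdkn2c (p18), an inhibitor of Cdk4 and Cdk6, went from 7.76 and 7.70 to 0, 3.64 and 3.88, with 6.72, 5.78 and 6.50 after IL4. Its fall of -5.22 had an adjusted p of 0.036, or 0.216 without unstimulated library 2. Cdkn1b, Cdkn1c, Cdkn2a and Cdkn2d did not pass the test, with differences of -0.40, -1.75, -2.29 and 0.63. Against IL4 Cdkn1a and Cdkn2b were higher (adjusted p = 0.0306 and 0.0047), beside 5.91% of all genes tested. The first call held in 2 of the 8 fits that each left out 1 library, with adjusted p up to 0.0913, and the second had an adjusted p of 0.0615 with only the 2 groups compared in the fit. After IL4 the limma count was 0 in both directions, with Cdkn1b lower at an unadjusted p under 0.05 (6.32 and 5.61 unstimulated against 1.84, 4.64 and 2.89, adjusted p = 0.234).

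Among 16 genes that control entry into S phase 2 fell and 1 rose after LPS plus IFNg, beside 4.25% and 3.72% of all genes tested, so that nothing is read from these counts about the list. Myc, a transcription factor of growth and proliferation, had 7.52 and 8.57 unstimulated, 10.05, 10.18 and 9.19 after IL4, and 5.54, 4.40 and 5.01 after LPS plus IFNg, with no overlap between groups. Its difference was -3.06 (SE 0.49, adjusted p = 0.0105, or 0.107 without unstimulated library 2), and 1.77 after IL4 (SE 0.49, adjusted p = 0.178). Cdk2, the S phase kinase, fell by 2.78 (SE 0.55, adjusted p = 0.025, or 0.143 without unstimulated library 2), and Ccnd2, a D-type cyclin, rose by 2.44 (SE 0.50, adjusted p = 0.0279, or 0.155 without that library). Against IL4 Myc, Cdk2 and Ccne2 were lower and Ccnd2 and Ccnd3 higher, beside 6.96% and 5.91% of all genes tested. Ccnd3 had 6.21 and 6.10 unstimulated, 4.28, 4.03 and 4.01 after IL4, and 6.85, 6.5 and 6.69 after LPS plus IFNg. Its difference from unstimulated was 0.52 after LPS plus IFNg (limma adjusted p = 0.559) and -2.05 after IL4 (adjusted p = 0.0651). The Cdk2 call against IL4 (adjusted p = 0.0498) was lost in all 8 fits that each left out 1 library, with adjusted p up to 0.129, and had an adjusted p of 0.557 under ribosomal protein scaling. The limma count after IL4 was 0 in both directions, with 2 lower and 2 higher at an unadjusted p under 0.05.

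**Figure D5:**
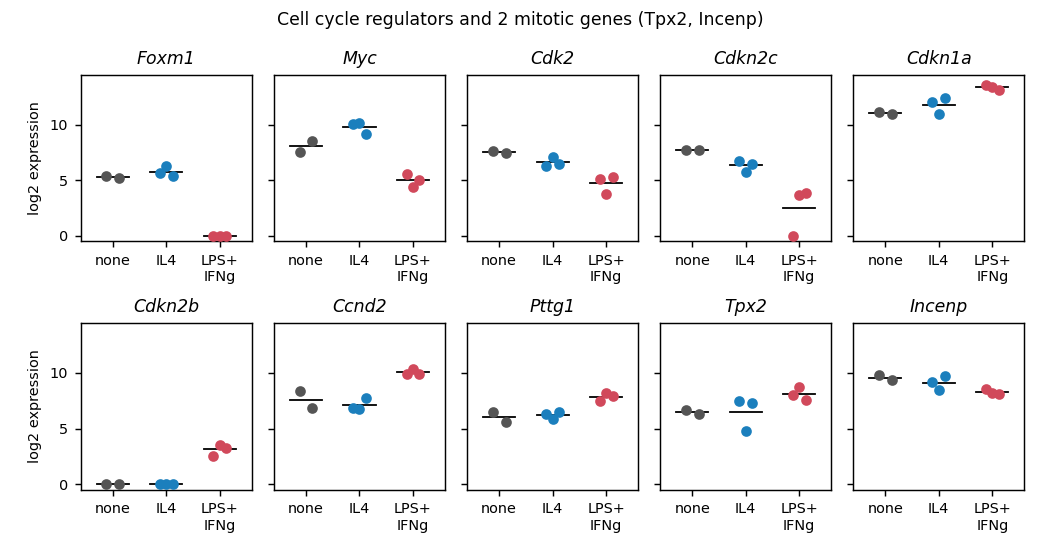
Quantile-normalised log2 expression of 8 cell cycle regulators and of Tpx2 and Incenp in unstimulated (none, n = 2), IL4 (n = 3) and LPS plus IFNg (n = 3) libraries, 1 point per library, with a bar at the group mean. Foxm1 is at 0 in the 3 LPS plus IFNg libraries, where Cdkn1a lies between 13.12 and 13.60.

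Markers of the cell type were read in the same libraries. All 11 macrophage markers in the table, among them Csf1r, Cd68 and Lyz2, were above 0 in all 8 libraries, with summed log2 levels of 115.1 to 115.4 unstimulated, 96.9 to 98.8 after IL4 and 109.7 to 113.2 after LPS plus IFNg. Of these 4 fell and 1 rose after LPS plus IFNg, beside 4.25% and 3.72% of all genes tested. After IL4 6 fell, beside 0.793% of all genes tested. Of 10 neutrophil genes 4 fell after LPS plus IFNg (S100a8, S100a9, Ltf and Mmp8), beside 4.25% of all genes tested. The 10 had sums of 69.6 to 71.9 unstimulated, 56.6 to 63.3 after IL4 and 34.7 to 41.6 after LPS plus IFNg. All 10 were above 0 in both unstimulated libraries and 9, 7 and 8 of them in LPS plus IFNg libraries 1, 2 and 3. Of 11 genes of bone marrow progenitors, which divide, none passed the test in either direction (limma, 1 lower and 0 higher at an unadjusted p under 0.05). Their sums were 19.7 to 27.2 unstimulated, 20.2 to 23.8 after IL4 and 7.47 to 13.9 after LPS plus IFNg. Above 0 were 10 and 9, then 5, 5 and 6, then 2, 5 and 2 of the 11 in the libraries of these groups. Of all genes, 11837 and 10888 were above 0 unstimulated, 9967 to 10303 after IL4 and 10489 to 10524 after LPS plus IFNg. Some unstimulated values counted here lay just above 0, such as those of Prtn3 (0.74 and 0.37) and Cebpe (0.07 and 0.23). Mpo, which did not pass the test, was at 0 in each LPS plus IFNg library, whereas Elane was above 0 in each of them. Of 8 dendritic cell genes Ccr7 rose and Itgax fell after LPS plus IFNg, beside 3.72% and 4.25% of all genes tested. Mast cell, lymphocyte, erythroid and fibroblast genes had 0 calls after LPS plus IFNg (limma, with 1 fibroblast gene lower at an unadjusted p under 0.05). The part of these markers in the fall of the mitotic genes was not tested.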

How the data were processed

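Per the labels' protocols, strand-specific 3' end libraries were made from mRNA with barcoded oligo-dT primers, pooled by Actb level and amplified by PCR, with no molecular identifiers described. The submitters' processing notes name TopHat and build mm9. Not given in the sources used here are a version, the counting tool and its use of strand.

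The values are log2 expression in 1 table of 20259 rows deposited by the authors, whose name says that they were quantile normalised. Quantile normalisation can hide overall differences in RNA amount, and read depth is unknown. Each library lists 8219 to 10210 genes at 0. All 8 columns were used, and their group line matched the labels in all 8. The row without a symbol was left out.

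Genes with 1 same value in every library (6643) were left out and the other 13615 fitted with limma 3.58.1 in R 4.3.3, with a mean per group over all 8 libraries (5 residual and 2.31 prior degrees of freedom), an intensity trend and Benjamini-Hochberg adjustment over all genes tested. The same script was tested on simulated data. The mitotic genes and all lists (further mitotic, replication, S phase entry, CDK inhibitor, MuvB and cell type marker genes) were chosen with earlier results of these data known. All 35 members are named. Values are given in full for the cyclins and Cdk1 and for the member with the highest unstimulated mean per role. Of the other lists, all CDK inhibitors, Foxm1, Mybl2 and up to 3 genes with the lowest adjusted p are named, and further genes were named after their values were seen. Alternatives were the replicate number as a block, no intensity trend, only the 2 groups compared, a filter that drops the genes in the lowest 0.25 of means, 1 added on the linear scale, values below 0 set to 0, 2 scalings, array weights, a threshold of 0.01 and each library left out in turn. Promoter windows are from RefSeq (GRCm38.p6), whose coordinates were not joined to the mm9-based table.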

Additional observations from a re-analysis of the deposited data

How the results depend on the processing

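The 28 mitotic genes that fell after LPS plus IFNg kept their direction in every setting tried. Members lower numbered 15 to 27 against unstimulated cells and 24 to 30 against IL4 when each library was left out in turn, and 0 after IL4 in every setting. Of the 28 called, 15 stayed called in all 8 such fits against unstimulated cells and 24 against IL4.

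Correlations of the deviations of same-numbered libraries ran from -0.079 to 0.072 over 7283 genes. Deviations were taken from means of 2 or 3 libraries, so they cannot decide whether replicate numbers pair the libraries. With the replicate number as a block, members lower were 19 against unstimulated cells and 24 against IL4, and all genes lower were 256 after LPS plus IFNg and 1 after IL4. In the IL4 comparison, the block turned the sign of Cdk1 (0.002), Kif4 (-0.12), Nuf2 (0.011), Ttk (0.47), Tpx2 (-0.051) and Nusap1 (0.0014), all small beside their standard errors. After LPS plus IFNg, the block left Foxm1 (adjusted p = 0.0526) and Cdkn2b (0.066) short of the threshold, as well as Myc, Ccnd2, Cdk2, Cdkn1a, Cdkn2c and Pttg1.

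At an adjusted p of 0.01, members lower were 18 against unstimulated cells, and all genes lower were 2 after IL4, 217 after LPS plus IFNg and 379 against IL4. With only the 2 groups compared, all genes lower after IL4 were 0, and they were 45 to 183 with each library left out. For LPS plus IFNg the latter count was 309 to 598, and members higher were 0 to 1. With 1 added on the linear scale the members' median was -4.34. Housekeeping scaling gave 265 and 498 genes lower than in unstimulated and IL4 cells and members' medians of -4.28 and -3.77, and it turned Cdk1 (0.068) and Ttk (0.088) after IL4. Ribosomal protein scaling gave 183 and 284 genes, medians of -3.50 and -2.86 and 1 member higher in each comparison, and turned Bub1 (0.14) and Incenp (0.17 against unstimulated, 0.62 against IL4). Array weights turned Aurkb (-0.0084), Kif4 (-0.029) and Ttk (0.032) after IL4.

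Leaving out libraries turned Bub1 after LPS plus IFNg (-3.15 to 0.49) and, after IL4, Ccnb1 (-1.43 to 0.20), Cdk1 (-0.26 to 0.060), Aurkb (-0.46 to 0.49), Kif4 (-0.42 to 0.93), Kif20a (-0.23 to 0.52), Nuf2 (-0.51 to 0.20), Ttk (-0.63 to 0.53), Tpx2 (-0.47 to 0.88), Mki67 (-1.03 to 0.035), Hmmr (-0.60 to 1.27) and Racgap1 (-0.28 to 0.66). None of these differences passed the test. The further mitotic genes lower after LPS plus IFNg numbered 8 to 33 and the replication genes 1 to 15 over all settings. The cause of these changes was not tested. Read depth is not known for any library. The unstimulated group holds only 2 libraries, and fits without 1 of them take its spread from the other groups.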
